A study of Caenorhabditis elegans with 6 samples.

Results

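The proteasome subunit genes of Caenorhabditis elegans were followed in cells sorted from adult males, as the 33 protein-coding genes of the count table, out of 46932 rows, whose WormBase symbol is pas, pbs, rpt or rpn followed by a number. They comprise 7 alpha and 7 beta subunits of the core particle, 6 ATPases of the regulatory particle, 4 other subunits of its base and 9 genes of its lid. RNA was sequenced from 5000 cells per library, sorted by fluorescence and labelled as vir and rep cells, which the series' design text gives as rectal valve and rectal gland. The series asks how loss of csr-1a, an isoform of the Argonaute gene csr-1, alters the male tail in offspring of heat-stressed parents. The wild-type group (3 libraries) carried gfp::sl2::2xflag::aid::csr-1a and the mutant group (3 libraries) gfp::sl2::2xflag::aid::csr-1a_delta. Both groups were young adult males with him-8 in the background, both carried wrmScarlet reporters driven by the pnc-1 and pcs-1 promoters on extrachromosomal arrays, and both had parents that were heat-stressed at late L4. All 6 libraries thus came from offspring of stressed parents, and an extrachromosomal array is not inherited or expressed by every cell. The replicates are labelled biological, with no word on separate cultures, so p-values measure the spread between these libraries.

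The proteasome is the large protease of the cytoplasm and nucleus that degrades proteins tagged with chains of ubiquitin. Its core particle is a barrel of stacked rings: the outer alpha rings gate the entrance, and the inner beta rings hold the cutting sites. The regulatory particle caps the barrel, with a base whose ATPases unfold the substrate and feed it in, and a lid that removes the ubiquitin. Each particle is assembled from many different subunits, and in C. elegans the transcription factor isoform SKN-1A raises many of the subunit genes together when proteasome activity falls.

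Library totals ran from 17748698 to 47890863 counts, of which 4542195 to 11541671 lay outside ribosomal RNA. Fewest genes were detected in wild-type replicate 3 (14012) and mutant replicate 2 (12757), against 18071 to 19083 in the other libraries. The levels of csr-1 were 185, 209.5 and 267 CPM (scaled counts per 1000000 counts) in wild type and 185, 157 and 153 CPM in the mutant, and counts per gene do not separate its isoforms, so they are no check of the deletion. Of the 10 listed markers of rectal epithelium and the reporter genes, 7 were tested, and the list took 0.0280% to 0.0365% of the counts other than ribosomal RNA in wild type and 0.0482% to 0.0604% in the mutant. The 7 coelomocyte genes took 1.63% to 1.68% in wild type and 0.755% to 1.14% in the mutant, and the 20 body wall muscle genes 0.414% to 0.475% and 4.28% to 9.17%. The 7 hypodermis genes, 5 of them tested, took 0.00999% to 0.0136% and 0.0270% to 0.0382%. Their tested genes did not move alike: log2 fold changes, mutant over wild type, ran from -0.69 to 1.91 with a median of 0.28 and 1 below 0. Those of the rectal and reporter list ran from -0.02 to 1.68, with a median of 0.92 and 1 below 0. Log2 fold changes of the 7 coelomocyte genes ran from -0.94 to 0.19, with a median of -0.81 and 1 above 0. For the 19 tested muscle genes they ran from 1.945 to 4.76, with 0 below 0. The shares of these 4 lists did not overlap between the groups, while those of the intestine, neuron, sperm and germline lists did. In bulk RNA from sorted cells, fewer cells of a type and less RNA per cell cannot be told apart.

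Of the 33 members, 32 passed the filter on low counts. In wild type the median level of the 32 members tested was 15.6 CPM per kb of exon, against 2.47 CPM per kb for all 11968 genes tested. Levels of the members were close to each other: 30 of 32 lay between 10 and 30 CPM per kb in wild type and 28 of 32 in the mutant. The upper quartile of mean wild-type member levels was 1.24 times the lower one, beside a ratio of 6.62 over all genes tested. For 3 other protein complexes the ratio was 1.26 (COP9 signalosome), 1.53 (eIF3) and 1.53 (TRiC chaperonin), so close levels were not particular to the proteasome. Within single libraries that ratio of the members was 1.29, 1.24 and 1.61 in replicates 1, 2 and 3 of wild type and 1.36, 1.48 and 1.33 in those of the mutant, so that it was widest in both libraries with the fewest genes detected. In order of wild-type level per kb, 3 pairs of neighbours were separated in every wild-type library, namely rpn-9 from rpn-3, pbs-2 from rpn-13, and rpn-13 from the undetected rpn-6.2. Every other neighbour in that order overlapped with the next, so neighbours from rpn-3 down to pbs-2 did not differ beyond their spread.

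**Figure D1:**
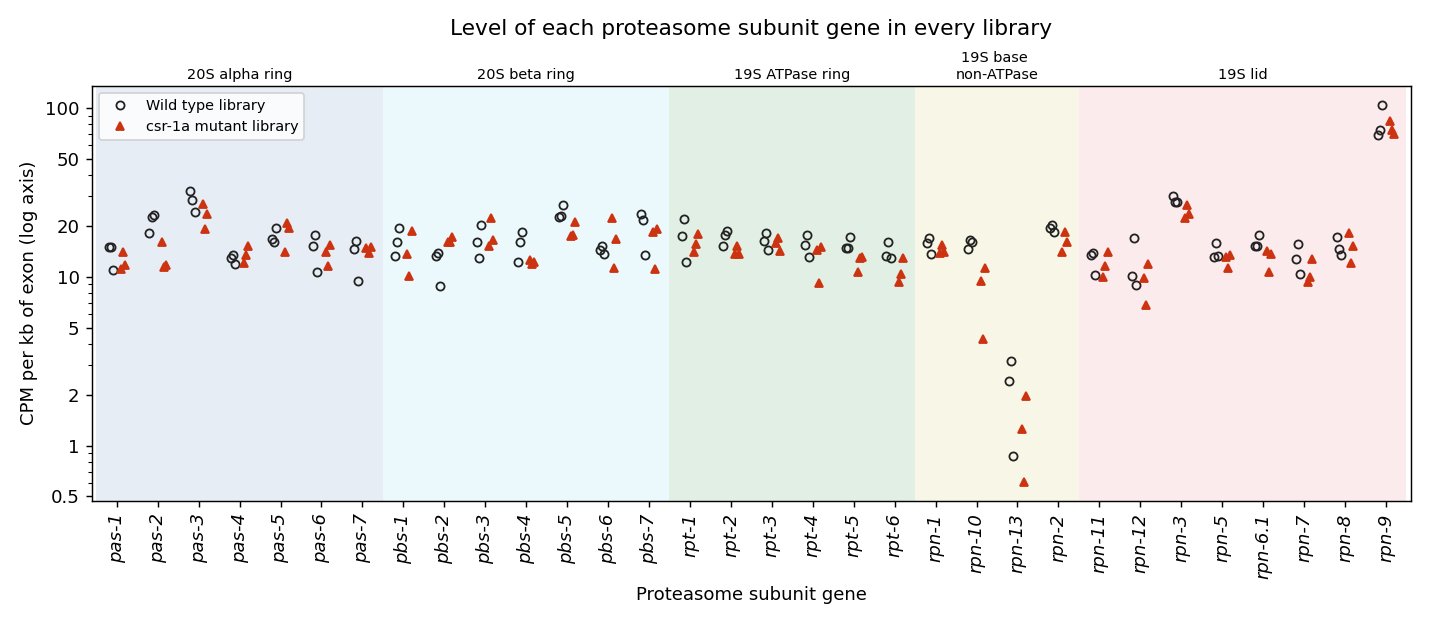
Level of each of the 32 tested subunit genes in CPM per kb of exon (log axis), with open circles for the 3 wild-type libraries and triangles for the 3 csr-1a mutant libraries, grouped by particle. Most genes lie between 10 and 30 CPM per kb, while rpn-9 is above and rpn-13 below all others.

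The lid gene rpn-9 (WBGene00004465, WBcel235 chromosome II, 11237447 to 11238919, minus strand), which encodes a scaffold subunit of the lid, stood above every other member in both groups. Its levels were 68.7, 73.97 and 104.7 CPM per kb in replicates 1, 2 and 3 of wild type, and 83.8, 73.7 and 70.2 CPM per kb in those of the mutant. In the wild-type mean that is 5.29 times the median member and 2.90 times the next gene, rpn-3. Alone it took 12.1% to 18.3% of all member counts in a library. An antisense noncoding gene, T06D8.12, overlaps 140 bp of rpn-9 exons and had no count in any library. At the other end stood rpn-13 (WBGene00016981, chromosome III, 6340113 to 6341928, minus strand), which encodes a ubiquitin receptor of the base. It had 88, 93 and 22 counts in wild type and 89, 23 and 66 counts in the mutant, with the lowest values in wild-type replicate 3 and mutant replicate 2, the libraries with the fewest genes detected. The median member was 7.22 times as high per kb in wild type.

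The second gene for the lid subunit RPN-6, rpn-6.2 (WBGene00010309, chromosome III, 8999817 to 9001999, minus strand), had 0 counts in all 6 libraries and was not tested. A count of 0 allows up to 3 counts in a library, which is 0.0629 to 0.177 CPM, and this limit covers counting error only. Its paralog rpn-6.1 was counted at 25.0, 25.0 and 29.1 CPM in wild type. The sources used here do not say how reads matching both paralogs would have been counted. The members lie on all 5 autosomes, with 10 on chromosome I, 7 on II, 8 on III, 3 on IV and 5 on V, and 0 on the X, which carries 13.7% of annotated protein-coding genes.

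No proteasome subunit gene passed the test of a difference between csr-1a mutant and wild type. Of 32 members tested, 0 were called higher and 0 lower by the quasi-likelihood test of edgeR, with Benjamini-Hochberg adjusted p under 0.05 over the whole table. Of all genes tested 5.59% were called, 4.04% as higher and 1.55% as lower. At an unadjusted p under 0.05 stood 2 members, pas-2 and rpn-10, which is 6.25% of those tested against 16.9% of all genes. DESeq2 and limma-voom also called 0 members, with a smallest member adjusted p of 0.0703 and 0.0889. The smallest adjusted p of a member in edgeR was 0.122.

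The data also bound the size of most changes, under the scaling of the main fit and for RNA of the sorted cells as a whole. The intervals carry no uncertainty of the scaling and do not bound changes within 1 cell type. The 95% interval of the fold change lay within 2-fold either way for 28 of the 32 members, and for 26.2% of all genes tested, many of which were counted less deeply. The exceptions were pas-2, rpn-10, rpn-12 and rpn-13. For 9 members (pas-4, pas-5, rpn-1, rpn-3, rpn-5, rpn-8, rpn-9, rpn-11 and rpt-3) the interval lay within 1.5-fold. The standard error of a member's log2 fold change had a median of 0.23, against 0.46 over all genes.

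**Figure D2:**
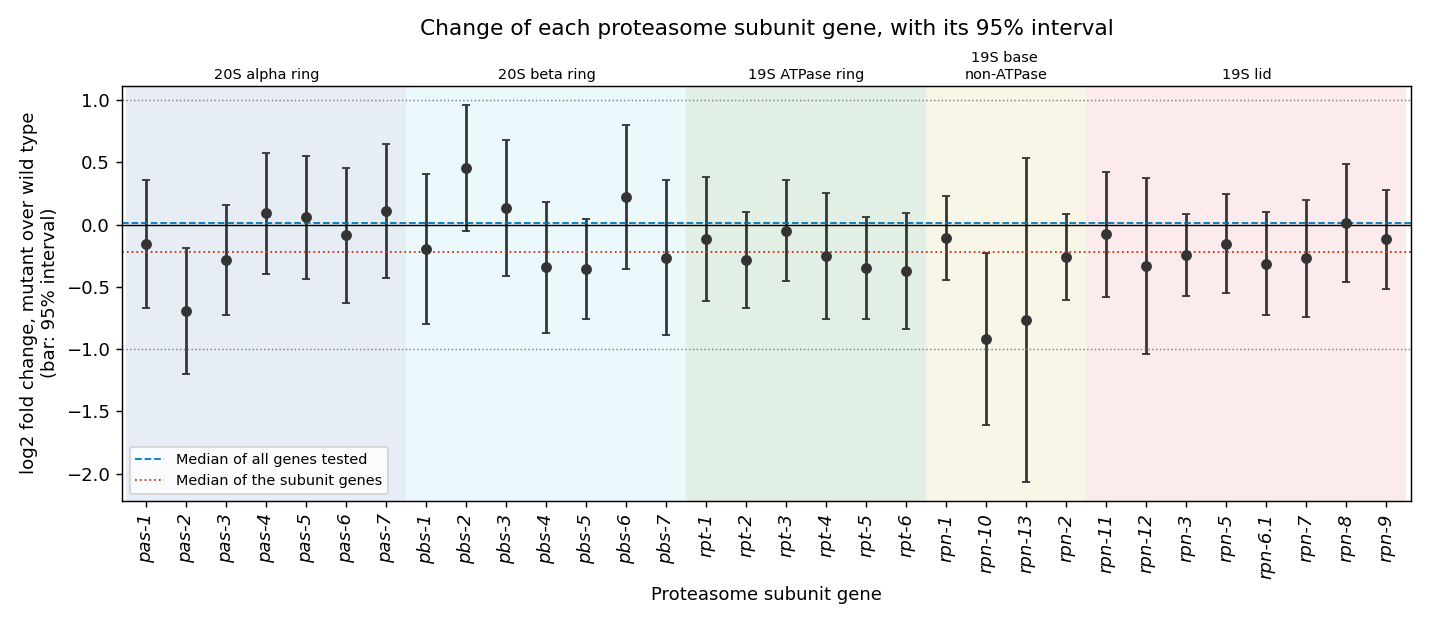
Log2 fold change of each tested subunit gene, csr-1a mutant over wild type (points), with its 95% interval from the quasi-likelihood fit (bars); the grey dotted lines mark 2-fold either way, the dashed line the median of all genes tested and the red dotted line the median of the subunit genes. Intervals of all genes but pas-2 and rpn-10 include 0, and 4 genes have intervals that reach past 2-fold, all of them downwards.

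Most point estimates were small and below 0. The members had a median log2 fold change of -0.22, with 25 below 0 and 7 above, beside a median of 0.01 over all genes tested. Of those genes 5922 were below 0 and 6046 above. In other lists, 16 of 21 core genes of cullin ligases and 8 of 11 of eIF3 were below 0, but 2 of 8 of TRiC and 2 of 5 of the COP9 signalosome. In 7 members (pas-2, pbs-5, rpt-2, rpt-5, rpn-3, rpn-6.1 and rpn-10) every mutant library was below every wild-type library, and in 1, pbs-2, every one was above. Together that is 25.0% of members, while 24.8% of all genes tested had groups that did not overlap. By direction, 21.9% of members were lower without overlap against 12.2% of all genes, and 3.12% were higher without overlap against 12.6%. No test was made of the list as a whole.

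In the alpha ring, which forms the gated entrance of the core particle, 4 of 7 genes had an estimate below 0, with a median of -0.09. The gene with the lowest estimate was pas-2 (WBGene00003923, chromosome V, 10770368 to 10771351, plus strand). Its levels were 15.2, 18.96 and 19.5 CPM in wild type and 13.5, 9.62 and 9.94 CPM in the mutant. All 3 mutant libraries were below all 3 wild-type libraries, with mutant replicate 1 closest. The log2 fold change of -0.69 ± 0.23 (95% interval -1.20 to -0.19) did not pass after adjustment (adjusted p = 0.122), and across the alternative settings the adjusted p ran from 0.0844 to 0.407. In wild type pas-2 ranked the fifth of the members per kb and in the mutant it ranked 20, each time among neighbours whose levels overlapped with its own. For the other 6 alpha genes the estimates lay between -0.29 ± 0.20 (pas-3) and 0.11 ± 0.24 (pas-7), and their groups overlapped. Levels of pas-3 were 28.8, 25.6 and 21.5 CPM in wild type and 24.0, 17.1 and 21.1 CPM in the mutant. Per kb it was the most abundant alpha gene in both groups, at 28.3 ± 4.1 CPM per kb (SD, n = 3) in wild type and 23.2 ± 3.91 CPM per kb (SD, n = 3) in the mutant. The alpha genes pas-1, pas-4, pas-5 and pas-6 had estimates of -0.16 ± 0.23, 0.09 ± 0.22, 0.06 ± 0.22 and -0.09 ± 0.25.

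In the beta ring 4 of 7 genes had an estimate below 0 and the median log2 fold change was -0.20. The genes of the subunits that carry the cutting sites, pbs-1 (caspase-like), pbs-2 (trypsin-like) and pbs-5 (chymotrypsin-like), did not share a direction. Levels of pbs-5 were 23.9, 24.2 and 28.02 CPM in wild type and 18.5, 18.6 and 22.4 CPM in the mutant. Here the mutant libraries were all lower (log2 fold change -0.36 ± 0.18, adjusted p = 0.38). Levels of pbs-2 were 13.4, 13.9 and 8.93 CPM in wild type and 16.2, 16.2 and 17.3 CPM in the mutant. Here the mutant libraries were all higher, and the gap was widest to wild-type replicate 3 (log2 fold change 0.46 ± 0.23, adjusted p = 0.37). It was the highest estimate of any member and fell to 0.27 without wild-type replicate 3. Levels of pbs-1 were 10.96, 13.2 and 15.9 CPM in wild type and 11.2, 8.36 and 15.4 CPM in the mutant, so that the groups overlapped (log2 fold change -0.20 ± 0.27). The non-catalytic beta genes pbs-3, pbs-4, pbs-6 and pbs-7 had estimates of 0.13 ± 0.25, -0.34 ± 0.24, 0.22 ± 0.26 and -0.27 ± 0.28, and their groups overlapped. Of these pbs-6 was most uneven in the mutant, at 19.6, 9.94 and 14.7 CPM.

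All 6 ATPase genes of the base, which encode the ring that unfolds substrates and opens the gate, had estimates below 0 (median -0.27), and none passed the test. Their levels per kb in wild type were within 1.22-fold of each other, from 14.1 CPM per kb (rpt-6) to 17.3 CPM per kb (rpt-2). The gene with the lowest estimate, rpt-6, was at 18.7, 22.6 and 18.2 CPM in wild type and 13.1, 14.6 and 18.3 CPM in the mutant. Its groups overlapped only through mutant replicate 3, which reached the lowest wild-type library (log2 fold change -0.37 ± 0.21, adjusted p = 0.441). Levels of rpt-5 were 22.1, 22.02 and 25.7 CPM in wild type and 15.95, 19.3 and 19.7 CPM in the mutant, without overlap (log2 fold change -0.35 ± 0.19, adjusted p = 0.408). Levels of rpt-2 were 22.5, 26.1 and 27.7 CPM in wild type and 20.1, 22.3 and 20.2 CPM in the mutant, also without overlap but with a gap of a fraction of a CPM (log2 fold change -0.28 ± 0.18, adjusted p = 0.498). The estimates of rpt-1, rpt-3 and rpt-4 were -0.11 ± 0.23, -0.05 ± 0.18 and -0.25 ± 0.23, with groups that overlapped. Exons of rpt-2, rpt-4 and rpt-6 overlap other genes on the opposite strand by 29, 103 and 26 bp, and reads there cannot be assigned without a stated strand setting. In all, 11 members have exons that overlap another gene, among them rpn-10 (32 bp, opposite strand) and pbs-7 (70 bp, same strand). The gene pqn-48, which overlaps rpn-11 by 16 bp on the opposite strand, had 10 to 40 counts in wild type and 340 to 1458 in the mutant.

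The base also holds the large scaffolds RPN-1 and RPN-2 and the ubiquitin receptors RPN-10 and RPN-13. The lowest estimate of all members was that of rpn-10 (WBGene00004466, chromosome I, 10730712 to 10732424, minus strand), known in C. elegans also for a role in sex determination. Its levels were 18.9, 21.3 and 20.6 CPM in wild type and 12.2, 5.51 and 14.5 CPM in the mutant, from 139 to 582 counts per library. The wild-type libraries were close together and the mutant libraries all below them, with mutant replicate 2 lowest. The log2 fold change of -0.92 ± 0.31 (95% interval -1.61 to -0.23) did not pass (adjusted p = 0.136). Without mutant replicate 2 the estimate was -0.55, and without any low-count filter rpn-10 was called (log2 fold change -0.88, adjusted p = 0.0157), the only one of 19 alternative settings in which a member passed. Per kb, rpn-10 went from rank 15 to rank 31 among the members. Its mutant levels, 4.27 to 11.2 CPM per kb, still overlapped those of the next gene up, rpn-12 (6.81 to 11.9 CPM per kb).

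For the other receptor gene, rpn-13, the estimate was -0.77 ± 0.59 (95% interval -2.07 to 0.53), the widest interval of the members, from levels of 3.63, 4.75 and 1.30 CPM in wild type and 1.87, 0.911 and 2.93 CPM in the mutant. Without wild-type replicate 2 the estimate was -0.39. At this depth a 2-fold fall of rpn-13 lay within the interval and a 2-fold rise outside it. The scaffold genes were among the most counted members. Levels of rpn-1 were 50.6, 53.6 and 43.4 CPM in wild type and 43.7, 48.6 and 44.4 CPM in the mutant (a log2 fold change of -0.11 ± 0.15). Levels of rpn-2 were 61.8, 64.3 and 58.6 CPM in wild type and 44.7, 58.7 and 50.9 CPM in the mutant (a log2 fold change of -0.26 ± 0.16). In both scaffold genes the groups overlapped, in rpn-2 only through mutant replicate 2.

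Of the 8 lid genes tested, 7 had an estimate below 0, and their median log2 fold change was -0.20. Levels of rpn-3, a scaffold subunit of the lid, were 55.7, 51.8 and 51.1 CPM in wild type and 41.3, 49.4 and 43.4 CPM in the mutant. Groups did not overlap, and the difference did not pass (log2 fold change -0.24 ± 0.15, adjusted p = 0.497). The gene rpn-6.1 (WBGene00004462, chromosome III, 6959110 to 6962001, minus strand) encodes a lid subunit that holds core and regulatory particle together, and its raised expression is known to increase stress resistance in C. elegans. In the mutant it was at 23.5, 17.5 and 22.6 CPM, below the wild-type libraries given above (log2 fold change -0.31 ± 0.19, adjusted p = 0.477). Without mutant replicate 2 the estimate was -0.14. The gene of the lid's deubiquitinating enzyme, rpn-11, was at 16.6, 17.0 and 12.7 CPM in wild type and 12.3, 14.3 and 17.3 CPM in the mutant. Its groups overlapped over most of their range (log2 fold change -0.08 ± 0.23), as did those of its partner rpn-8 (0.01 ± 0.21), the one gene of the regulatory particle with an estimate above 0.

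The abundant rpn-9 had an estimate of -0.12 ± 0.18, from 91.1, 98.0 and 138.7 CPM in wild type and 111.0, 97.6 and 92.9 CPM in the mutant. Wild-type replicate 3 was highest, and the other 5 libraries lay close together. The estimates of rpn-5, rpn-7 and rpn-12 were -0.15 ± 0.18, -0.27 ± 0.21 and -0.33 ± 0.32, with groups that overlapped, and that of rpn-12 was -0.015 without wild-type replicate 2. Of rpn-7, 394 bp of exon overlap the oppositely oriented gene nemt-1, which had 0 to 6 counts per library.

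By particle, 17 of 18 tested genes of the regulatory particle and 8 of 14 of the core particle had an estimate below 0, with median log2 fold changes of -0.26 and -0.12. Whether the particles differ was not tested. Low values lay mainly in mutant replicates 1 and 2. On the scale of log2(CPM + 1), 9 of 32 members were above their own 6-library mean in each of them, but 19 of 32 in mutant replicate 3. In wild type 21, 26 and 14 of 32 were above it in replicates 1, 2 and 3. The median deviation of the members was 0.09, 0.18 and -0.08 in wild-type and -0.11, -0.20 and 0.02 in mutant replicates, so mutant replicate 3 was above wild-type replicate 3. For all genes tested the corresponding medians lay between -0.03 and 0.04.

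**Figure D3:**
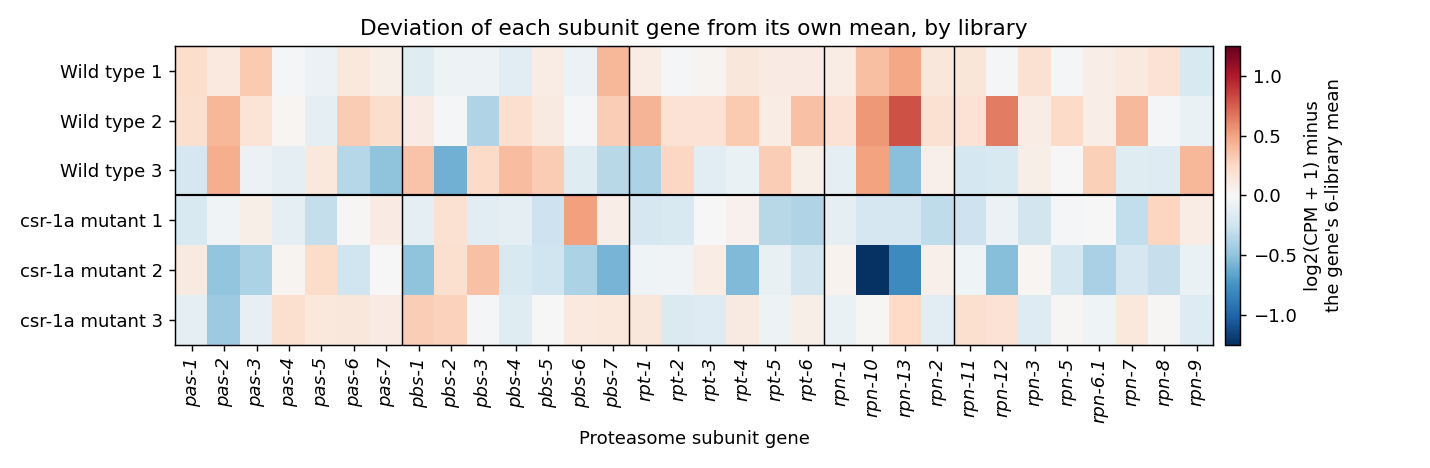
Deviation of each tested subunit gene (columns, grouped by particle) from its own mean over the 6 libraries, as log2(CPM + 1), in the 3 wild-type and 3 csr-1a mutant libraries (rows); red is above the mean and blue below. Wild-type replicate 2 is mostly red and mutant replicate 2 mostly blue, with rpn-10 the deepest blue, while mutant replicate 3 is mixed.

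The summed share of the proteasome genes overlapped between the groups. Members took 0.298%, 0.34% and 0.282% of the counts other than ribosomal RNA in replicates 1, 2 and 3 of wild type, and 0.28%, 0.292% and 0.323% in those of the mutant. The means were 0.307% ± 0.0300 (SD, n = 3) and 0.298% ± 0.0222 (SD, n = 3), a ratio of 0.973 of mutant over wild type. With the muscle list, whose share rose from 0.438% ± 0.0328 (SD, n = 3) to 6.04% ± 2.72 (SD, n = 3), left out of the total, the ratio was 1.03. With the muscle list kept in the total, leaving out 1 library moved the ratio between 0.933 (without mutant replicate 3) and 1.029 (without wild-type replicate 2). The direction of the small shift thus depended both on what the counts were set against and on single libraries. The median log2 fold change of the members was -0.22 in the main scaling, -0.18 without the muscle list, -0.12 when libraries were scaled by their totals alone and -0.07 when scaled by counts outside ribosomal RNA alone. The median of all genes was at 0.01, 0.04, 0.11 and 0.15 in the same settings, so that relative to it the members were at -0.23, -0.22, -0.23 and -0.22. Over all 19 alternative settings this difference ran from -0.25 to -0.14. It was smallest with at least 5 CPM in 3 libraries (-0.14), without mutant replicate 2 (-0.15) and without mutant replicate 1 (-0.17).

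Genes that supply and deliver the substrate were read beside the subunits. Among 8 genes of ubiquitin, ubiquitin-like proteins and activating enzymes, 1 was called, as lower, beside 5.59% of all genes called and 1.55% called as lower, so the count of 1 is no result about the list. The polyubiquitin gene ubq-1, the main source of ubiquitin, was at 503, 439 and 572 CPM in wild type and 334, 351 and 275 CPM in the mutant. All mutant libraries were lower, and ubq-1 fell (log2 fold change -0.66 ± 0.16, adjusted p = 0.0314). This call held in 10 of 19 alternative settings and ended with the replicate block (adjusted p = 0.0863) and with library totals alone, a stricter filter of 5 CPM in 3 libraries or scaling by counts outside ribosomal RNA (adjusted p = 0.106, 0.0535 and 0.0547). It also ended without wild-type replicate 1 or 3 (adjusted p = 0.17 and 0.126), without mutant replicate 2 or 3 (adjusted p = 0.0607 and 0.135) and without both libraries of fewest genes (adjusted p = 0.171). The gene ubq-1 is built of near-identical ubiquitin repeats, and ubq-2 encodes a single ubiquitin fused to a ribosomal protein, so reads of the ubiquitin part may be shared between them. The estimate of ubq-2 was opposite, at 0.41 ± 0.16 (adjusted p = 0.192), with all mutant libraries above all wild-type libraries. The gene of the ubiquitin-activating enzyme, uba-1, was at 122.4, 117 and 126 CPM in wild type and 91.6, 99.3 and 91.0 CPM in the mutant. Those groups did not overlap, but the difference did not pass (log2 fold change -0.38 ± 0.13, adjusted p = 0.154).

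In the pathway that raises proteasome genes, none of 5 members passed, all 5 estimates were below 0 and their median was -0.53. Levels of skn-1, counted over all its isoforms, were 87.9, 63.7 and 101.9 CPM in wild type and 62.3, 57.0 and 46.2 CPM in the mutant. The groups did not overlap, by a narrow gap to wild-type replicate 2 (log2 fold change -0.61 ± 0.20, adjusted p = 0.108), and skn-1 passed in 2 of 19 settings. These were the fit with no low-count filter (adjusted p = 0.0315) and the fit leaving out wild-type replicate 2 (adjusted p = 0.041). For sel-1 and sel-11, which act in export of proteins from the endoplasmic reticulum for degradation, the estimates were -0.53 ± 0.20 and -0.22 ± 0.21. For png-1, which removes sugar chains from SKN-1A, and the protease gene ddi-1, which cuts it, they were -0.53 ± 0.29 and -0.04 ± 0.31.

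Of 9 listed partners of the proteasome, none passed, with 2 estimates above 0, 7 below and a median of -0.25. The shuttle genes rad-23 and ubql-1, which carry ubiquitinated proteins to the base, had estimates of -0.51 ± 0.20 (adjusted p = 0.198) and -0.41 ± 0.16 (adjusted p = 0.209), each with all mutant libraries lower. The estimate of psme-3, which encodes an alternative cap of the core particle, was 1.10 ± 0.49 (adjusted p = 0.285). Its levels were low, at 3.13, 3.17 and 1.18 CPM in wild type and 3.59, 8.44 and 4.08 CPM in the mutant, and mutant replicate 2 was highest. Without that library the estimate was 0.66, and without both libraries of fewest genes 0.32. The deubiquitinase genes ubh-4 and usp-14 and the small lid subunit gene dss-1 had estimates of -0.22 ± 0.32, -0.15 ± 0.20 and -0.25 ± 0.26. The lowest estimate of the list was that of aip-1, at -0.86 ± 0.41 with groups that overlapped, and it ran from -1.41 to -0.44 without single libraries. The other estimate above 0 was that of psmd-9, at 0.73 ± 0.62, which ran from 0.27 to 1.45. For ecps-1 it was -0.34 ± 0.16, with all mutant libraries lower.

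None of 13 tested genes of the segregase CDC-48 and its cofactors passed (median -0.14), nor of 22 ubiquitin-conjugating enzymes (-0.13) or 21 core genes of cullin ligases (-0.16). Of all genes tested 5.59% were called, so 0 calls in lists this short is no result about them. The same holds for the SKN-1A pathway and partner lists above and the complexes below. In the CDC-48, conjugating enzyme and cullin lists the members with the smallest p were ubxn-3 (-0.53 ± 0.17), uev-3 (-0.56 ± 0.21) and elc-1 (-0.74 ± 0.34). Their adjusted p were 0.112, 0.181 and 0.303. Levels of elc-1 were 5.97, 7.001 and 12.8 CPM in wild type and 5.84, 4.63 and 4.88 CPM in the mutant, with wild-type replicate 3 far above the rest. Without that library its estimate was -0.35, and without both libraries of fewest genes -0.23. Among complexes that share folds with the lid, none of 5 tested COP9 signalosome genes (median 0.20) and none of 11 genes of eIF3 (-0.12) passed. Their smallest adjusted p were 0.449 for csn-6 and 0.202 for eif-3.D. The folding chaperonin TRiC, also built of different subunits in rings, had a median of 0.15 with 0 of 8 genes called. Its member with the smallest p was cct-8 (0.54 ± 0.20, adjusted p = 0.173). In 3 TRiC genes every mutant library was above every wild-type library, and in 0 below. Over all genes tested these shares were 12.6% and 12.2%. In the same libraries the muscle gene unc-54 went from 249 ± 28.9 to 4064 ± 2120 CPM (SD, n = 3) and the coelomocyte gene cup-4 from 982 ± 64.8 to 558 ± 101 CPM (SD, n = 3). The part of these tissues in the values of ubq-1 and of the proteasome lists was not tested. After the muscle list was taken out of the counts, 0 proteasome members were called, and ubq-1 stood at -0.62 (adjusted p = 0.036). That fit drops only the listed muscle genes, and any reads of ubq-1 or the subunit genes from muscle cells stay in. It therefore cannot show the part of muscle in these values.

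**Figure D4:**
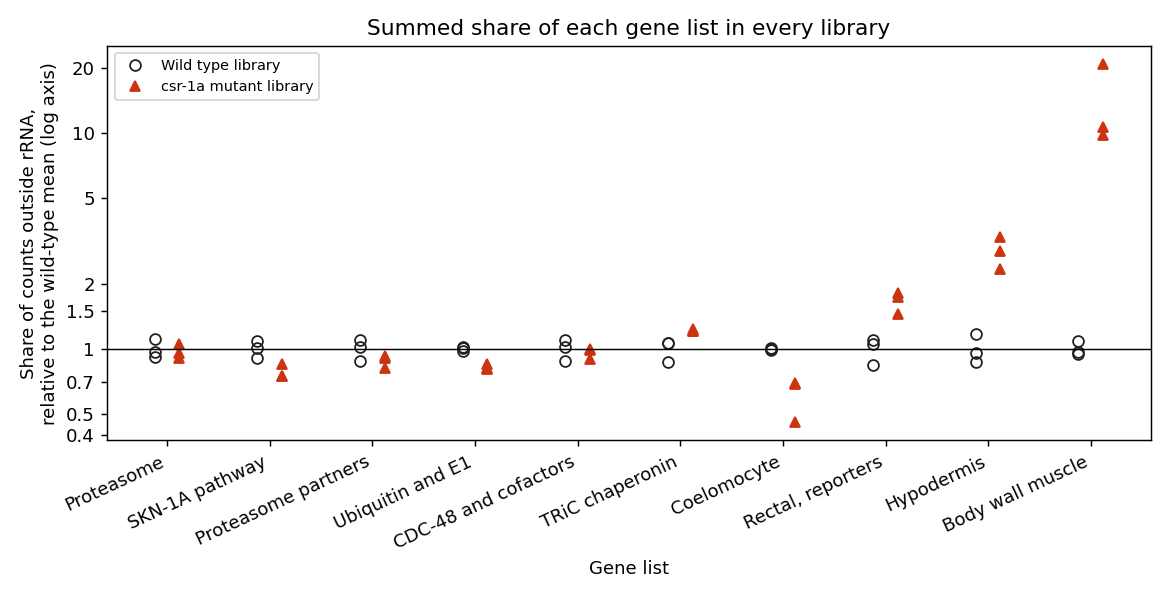
Summed share of 10 gene lists in the counts outside ribosomal RNA, relative to the wild-type mean of each list (log axis), with open circles for wild-type and triangles for csr-1a mutant libraries. Proteasome shares overlap around 1. TRiC shares are higher in every mutant library (1.205 to 1.242) than in any wild-type library (0.868 to 1.07). Shares of SKN-1A pathway and ubiquitin and E1 genes are lower in the mutant libraries. The most counted genes of those lists are skn-1 and ubq-1, which weigh most in the sums, and 3 of 8 ubiquitin and E1 genes had estimates above 0. Of the 4 tissue lists plotted, coelomocyte shares are lower and body wall muscle, hypodermis and rectal shares higher, with muscle furthest.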

How the data were processed

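The authors deposited 1 table of raw read counts per gene for 6 libraries, 3 per genotype, and no sample column was left unused. Tools named in the submitters' processing notes, with neither role nor order, are DESeq2, featureCounts, STAR, Subread 2.0.0 and fastp 0.20.1. No source used here gives the genome build, annotation or strand setting. Symbols, coordinates (1-based) and exon lengths came from WBcel235 (Ensembl release 115) by identifier, matching 46919 of 46932 rows. Total counts per library ran from 17748698 to 47890863, ribosomal RNA included. The lowest chi-square per degree of freedom between libraries of a group was 8.76, more than counting error alone gives. It cannot show whether libraries came from separate cultures or sorts, and each library was treated as a replicate.

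The test was edgeR 4.0.16 (R 4.3.3) on all rows passing filterByExpr (minimum count 10, minimum total 15), with TMM scaling, glmQLFit (robust=TRUE), glmQLFTest and Benjamini-Hochberg adjustment at 0.05. Fits used the group alone. Standard errors and 95% intervals came from the F statistic and its degrees of freedom. CPM used the same scaling, and CPM per kb divided it by the union of exons. DESeq2 1.42.0 and limma-voom (limma 3.58.1) were alternatives, as were other scalings and filters, robust=FALSE, a replicate block, single libraries or the pair with fewest genes left out, and ribosomal RNA, muscle or the 50 most abundant genes left out. All members were named, and from other lists up to 3 called genes or the gene with the smallest p. Also named were all 5 SKN-1A pathway genes, all 9 listed partners, uba-1 and ubq-2, chosen after values were seen. Members and lists were chosen with earlier results of these data known. No reference sequence was used here.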

Additional observations from a re-analysis of the deposited data

How the results depend on the processing

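Of 19 alternative settings, 18 left 0 members called; without a low-count filter 0 were higher and 1 lower (rpn-10). The median log2 fold change of the members stayed below 0, at -0.12 with library totals alone, -0.10 with at least 5 CPM in 3 libraries, -0.066 with counts outside ribosomal RNA alone (chosen after seeing the data) and -0.26 to -0.078 without single libraries. Between 19 and 26 members were below 0. The number of genes called over the whole table was 669, 1048 without a filter, 1054 with DESeq2 and 416 to 697 without single libraries, lowest without wild-type replicate 1 (416) and wild-type replicate 3 (422). Leaving out rpn-9 (also chosen after seeing the data) gave a ratio of summed shares of 0.965, within the spread between libraries.

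Estimates near 0 changed sign, none of them called, and the cause was not tested. With library totals alone rpn-11, rpt-3 and ddi-1 were at 0.018, 0.053 and 0.086. With at least 5 CPM in 3 libraries pas-6, rpn-11, rpt-3 and ddi-1 were at 0.0048, 0.0085, 0.044 and 0.050. With counts outside ribosomal RNA alone pas-6, rpn-1, rpn-11, rpn-9, rpt-1, rpt-3 and ddi-1 were at 0.048, 0.032, 0.067, 0.034, 0.021, 0.089 and 0.12. Without both libraries of fewest genes pas-7, pbs-1 and rpn-9 were at -0.013, 0.17 and 0.15. Without single libraries pas-5 ran from -0.0026 to 0.22, pas-6 from -0.28 to 0.071, pas-7 from -0.099 to 0.26, pbs-1 from -0.39 to 0.048, pbs-3 from -0.023 to 0.30, pbs-6 from -0.028 to 0.50, rpn-11 from -0.21 to 0.043, rpn-8 from -0.13 to 0.21, rpn-9 from -0.20 to 0.076, rpt-1 from -0.32 to 0.094, rpt-3 from -0.14 to 0.056 and ddi-1 from -0.38 to 0.17.

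Replicate numbers are shared between the groups, but same-numbered libraries did not deviate together (correlations of 0.01, -0.04 and -0.14), so they were not treated as pairs. The replicate block gave 560 called genes, 0 called members and a member median of -0.23. Of the genes named with a call, ubq-1 lost it in 9 settings (adjusted p up to 0.171), including without both libraries of fewest genes, and cup-4 lost it in 3 (adjusted p up to 0.0704). Among other named genes without a call, leaving out 1 library moved pbs-4 to -0.22 and cct-8 to 0.35 (wild-type replicate 3), png-1 to -0.30 and csn-6 to 0.34 (mutant replicate 2) and ubql-1 to -0.26 (wild-type replicate 1). Depth limits rpn-13 most, with 22 to 93 counts per library.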
